A study of Mus musculus with 12 samples.

Results

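The oligoadenylate synthetase (OAS) genes Oas1a, Oas1g, Oas2, Oas3, Oasl1 and Oasl2 were examined in bone marrow-derived macrophages (BMDMs) of C57BL/6 mice. These 6 members were chosen by gene symbol among 43131 genes in the deposited count table, and for each the transcript with the highest total count was used. All mice carried floxed tlr4, the gene of the lipopolysaccharide (LPS) receptor, on both alleles. The tlr4f/f-lysM-cre mice also carried Cre recombinase under the lysozyme M promoter, which deletes floxed tlr4 in macrophages, monocytes and neutrophils. The tlr4f/f mice without Cre served as controls. BMDMs were grown for 7 days with 50 ng/mL M-CSF, a macrophage growth factor, and were then left untreated (LPS-) or given 1 µg/mL LPS for 6 hours (LPS+). PolyA RNA sequencing gave 12 libraries, 3 under each of 4 column headings. These are LPS- tlr4f/f for untreated controls, LPS- tlr4f/f-lysM-cre for untreated Cre macrophages, LPS+ tlr4f/f for treated controls, and LPS+ tlr4f/f-lysM-cre for treated Cre macrophages. Nothing states that the libraries of a group came from separate mice, so p-values measure only the spread between these libraries, which may be technical. The sources used here do not tie an age or sex to the BMDM donors.

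OAS enzymes are interferon-induced sensors of double-stranded RNA. When bound to it, the catalytic members Oas1a, Oas1g, Oas2 and Oas3 join ATP into 2′-5′-linked oligoadenylates (2-5A), which act as second messengers of antiviral defence. Oasl1 lacks synthetase activity and is known to inhibit translation of Irf7, whereas Oasl2 keeps synthetase activity and, like Oasl1, carries ubiquitin-like domains. In macrophages, LPS sensed by TLR4 leads through TRIF and IRF3 to interferon-β, whose receptor in turn drives OAS genes.

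Counts of 3 genes bear on the column headings. Tlr4, the targeted gene, was at 76.7, 147 and 121 CPM (counts scaled to library size with TMM factors) in the libraries headed LPS- tlr4f/f and at 117, 95.1 and 116 in the 3 under LPS- tlr4f/f-lysM-cre. Tlr4 was at 31.1, 27.8 and 24.3 CPM in those under LPS+ tlr4f/f and at 27.5, 24.6 and 24.8 in those under LPS+ tlr4f/f-lysM-cre. Tlr4 therefore separated the headings by LPS and not by genotype. Lyz2, the lysozyme M gene in which such Cre alleles are placed, separated them in the same way, between 5950 and 23264 CPM under both LPS- headings and between 10.4 and 75.6 CPM under both LPS+ headings. Il1b, an LPS-induced cytokine gene, was between 1640 and 8220 CPM under both tlr4f/f-lysM-cre headings and between 0.0748 and 6.93 CPM under both tlr4f/f headings. The heading LPS- tlr4f/f-lysM-cre may be exchanged with that of LPS+ tlr4f/f. If they are, low Tlr4 and Lyz2 fall to the tlr4f/f-lysM-cre libraries and high Il1b to the LPS-treated ones. Each comparison is named here by its column headings, and both readings are given, since both rest on the same libraries and the same fits.

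Of the libraries, LPS- tlr4f/f replicate 3 stood apart, with Il1b at 4 counts against 256 and 405 in the other two of its group and Oasl1 at 588 against 2288 and 2724. Library totals were between 33577087 and 56445268 counts, and the lowest count of a member in any library was 360, so counting error was small beside the spread between libraries. All 8 macrophage markers listed had more than 3 counts in every group. Their summed level, which includes Lyz2, was between 13763 and 29499 CPM in LPS- tlr4f/f, 17890 and 21364 in LPS- tlr4f/f-lysM-cre, 4417 and 4682 in LPS+ tlr4f/f, and 7801 and 8025 in LPS+ tlr4f/f-lysM-cre. Without Lyz2 the other 7 summed to between 6235 and 7196, 10569 and 13683, 4406 and 4668, and 7748 and 7950 CPM in that order of groups, so LPS- tlr4f/f-lysM-cre was then the highest and LPS+ tlr4f/f the lowest, as for the OAS genes. The 5 stromal markers summed to between 9.05 and 663, 186 and 1471, 20.1 and 24.8, and 44.0 and 56.0 CPM, with none at 0 across a group. The 6 neutrophil markers summed to between 0.542 and 12.2, 13.0 and 164, 4.09 and 6.07, and 5.09 and 7.22 CPM. Ly6g, their defining marker, was at 0 except in LPS- tlr4f/f-lysM-cre, where it had at most 1 count in a library. The highest values of both sums were thus in LPS- tlr4f/f-lysM-cre, the group with the highest OAS levels. The part of these marker levels in the results was not tested. Markers of B lymphocytes, T lymphocytes, mast cells with basophils, and dendritic cells summed to at most 1.12, 0.128, 3.68 and 6.13 CPM in a library. In bulk RNA, fewer cells of a type and less RNA per cell cannot be told apart.

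All 6 genes lie on chromosome 5 (build GRCm38.p6, RefSeq). Oasl2 at chr5:114896926-114912245 and Oasl1 at chr5:114923143-114937911 are neighbours. Oas2 at chr5:120730333-120749886 and Oas3 at chr5:120753098-120777684 open a second cluster of 10 OAS genes that ends at position 120921648. Oas1g at chr5:120876142-120887613 and Oas1a at chr5:120896256-120907544 stand near its far end.

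Because the 6 genes kept one order of groups, the bases just before their starts were searched for GAAA, any 2 bases and GAAA again, the core of the interferon-stimulated response element. Of 32851 RefSeq promoter windows, 1.59% held such a match on either strand within the 150 bases before the start. It was present in 3 of the 5 members with a window (Oas1a, Oas1g and Oas3) and not in the windows of Oasl1 and Oasl2. Oas2 has no window. Of the windows, 97 of the 150 bases of Oasl1 lie inside the RefSeq span of the gene, 25 of Oas3, 19 of Oas1a, 8 of Oasl2 and 0 of Oas1g, so little of the Oasl1 window lies before the gene. These are the matches, in stretches of 30 bases in the direction of the gene, with the matched bases in capitals, printed because those of Oas1a and Oas1g are the same.
Oas1a: cccttctcggGAAATGGAAACTGAAAatct
Oas1g: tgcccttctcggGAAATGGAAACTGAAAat
Oas3: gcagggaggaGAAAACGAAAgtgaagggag
The Oas1a stretch is chr5:120907526-120907555, the Oas1g stretch chr5:120887614-120887643 and the Oas3 stretch chr5:120777715-120777744, all on the minus strand. In Oas1a and Oas1g, 2 matches overlap and share their middle GAAA, and together they fill 16 bases that open 20 and 18 bases before the start. Oas3 holds 1 match, which opens 75 bases before its start. The 19 bases of Oas1a inside the gene span are the last of its stretch. The matched bases of Oas1a therefore lie almost wholly inside its span, and those of Oas1g lie outside the span of Oas1g. Over the whole 150 bases, Oas1a and Oas1g were identical at 120 of 148 aligned bases (81.1%). A match is a description of these letters and not evidence of binding. Of the 3 other OAS genes with a window, Oas1c held 2 matches on the opposite strand, and it was called in no comparison. Read on that strand, they fill the same 16 bases as those of Oas1a and Oas1g. Oas1b, described below, has no window. Its span starts at position 120812635, inside the Oas1c window (chr5:120812515-120812664). None of the 19 genes of the pathway lists below with a window held a match.

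Each of the 6 genes had its highest mean level in LPS- tlr4f/f-lysM-cre, followed by LPS+ tlr4f/f-lysM-cre, then by LPS- tlr4f/f and last by LPS+ tlr4f/f. Neighbouring groups in this order overlapped in 2 cases, the Oas3 levels of LPS+ tlr4f/f-lysM-cre with those of LPS- tlr4f/f, and the Oasl1 levels of LPS- tlr4f/f with those of LPS+ tlr4f/f. How many of all genes keep this order, or are as separate, was not counted. Means of other genes described below, such as Oas1b, Ifih1, Tlr3 and Usp18, kept it too, while those of Akap7 and Irf7 did not. As headed, the order puts untreated Cre macrophages highest and LPS-treated control macrophages lowest. With the headings exchanged, it runs from LPS-treated tlr4f/f through LPS-treated tlr4f/f-lysM-cre and untreated tlr4f/f to untreated tlr4f/f-lysM-cre.

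Oas1a encodes a small synthetase of the OAS1 type. In LPS- tlr4f/f it was at 137, 130 and 103 CPM, in LPS- tlr4f/f-lysM-cre at 460, 444 and 366, in LPS+ tlr4f/f at 64.9, 65.2 and 58.2, and in LPS+ tlr4f/f-lysM-cre at 170, 165 and 174. No group overlapped another.

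Oas1g, its close paralog, was at 47.8, 40.5 and 38.3 CPM in LPS- tlr4f/f, 194, 180 and 168 in LPS- tlr4f/f-lysM-cre, 18.7, 16.1 and 15.1 in LPS+ tlr4f/f, and 66.2, 64.8 and 68.9 in LPS+ tlr4f/f-lysM-cre. Its groups were separate as well. The longest transcripts of Oas1a and Oas1g shared 56.9% and 54.1% of their stretches of 50 bases, so reads between this pair are uncertain where the counting could split them. Oas2, Oas3, Oasl1 and Oasl2 shared none with another OAS gene. The ratio of Oas1g to Oas1a CPM within a library was 0.344 ± 0.0310 (SD, n = 3) in LPS- tlr4f/f, 0.429 ± 0.0273 in LPS- tlr4f/f-lysM-cre, 0.265 ± 0.0211 in LPS+ tlr4f/f and 0.393 ± 0.00261 in LPS+ tlr4f/f-lysM-cre.

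Oas2, the medium-sized synthetase, was at 118, 80.9 and 80.2 CPM in LPS- tlr4f/f, 313, 293 and 314 in LPS- tlr4f/f-lysM-cre, 41.0, 39.0 and 46.2 in LPS+ tlr4f/f, and 136, 136 and 142 in LPS+ tlr4f/f-lysM-cre. Its groups did not overlap, and in LPS- tlr4f/f-lysM-cre it had the lowest coefficient of variation of the members (3.95%).

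Oas3, the large synthetase, was at 511, 408 and 234 CPM in LPS- tlr4f/f, 1394, 1428 and 891 in LPS- tlr4f/f-lysM-cre, 201, 197 and 186 in LPS+ tlr4f/f, and 505, 469 and 494 in LPS+ tlr4f/f-lysM-cre. In both LPS- groups replicate 3 was the lowest of its group, and LPS- tlr4f/f replicate 1 lay above all LPS+ tlr4f/f-lysM-cre libraries.

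Oasl1, the member without synthetase activity, had the widest range. It was at 39.1, 43.7 and 11.0 CPM in LPS- tlr4f/f, 1202, 1653 and 1085 in LPS- tlr4f/f-lysM-cre, 13.5, 11.2 and 6.19 in LPS+ tlr4f/f, and 201, 211 and 162 in LPS+ tlr4f/f-lysM-cre. LPS- tlr4f/f replicate 3 fell among the LPS+ tlr4f/f libraries, while the other two of its group lay above them.

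Oasl2 was at 348, 290 and 232 CPM in LPS- tlr4f/f, 1091, 1296 and 767 in LPS- tlr4f/f-lysM-cre, 140, 147 and 115 in LPS+ tlr4f/f, and 528, 506 and 499.6 in LPS+ tlr4f/f-lysM-cre. No group overlapped another.

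**Figure D1:**
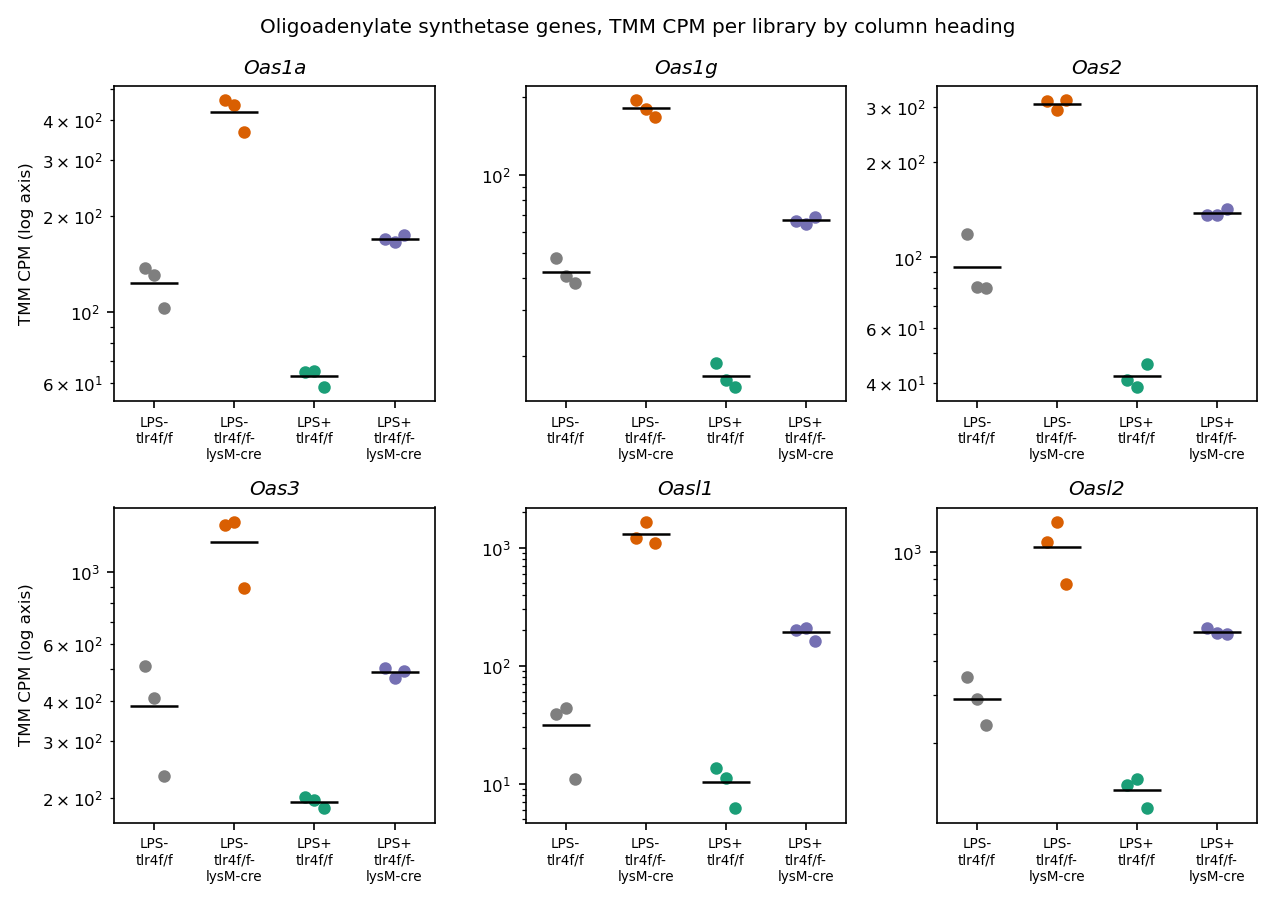
Level of each of the 6 OAS genes in TMM-scaled CPM (log axis) by column heading, with points for the 3 libraries of a group and lines for their means. In every panel the LPS- tlr4f/f-lysM-cre libraries are highest and the means of LPS+ tlr4f/f lowest; Oasl1 runs from 6.19 to 1653 CPM.

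The transcript chosen for a gene made little difference to these ratios. Transcripts of a gene may count many of the same reads, as the totals for Oas1a were 94885, 94237 and 94224. The agreement is therefore no independent check, and Oas3 has only 1 transcript. Over the 18 transcripts of the 6 genes, some with only 28.7% of the count of the one used, the log2 ratio between groups differed by at most 0.115 within a gene.

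The question of genotype without LPS, as headed, was addressed by LPS- tlr4f/f-lysM-cre against LPS- tlr4f/f, which with the headings exchanged is LPS against untreated in tlr4f/f BMDMs. A gene was called when its fold change was above 2 and its adjusted p below 0.01 (edgeR quasi-likelihood test, Benjamini-Hochberg over all genes tested). All 6 members passed the filter on low counts in every comparison. Each of the 6 was higher here, and 5 of 6 were called higher, against 9.25% of 14635 genes called higher and 7.81% called lower. The median log2 fold change of the members was 1.81, and that of all genes tested was -0.08. Oasl1 rose 41.5-fold (log2 fold change 5.38, SE 0.603, adjusted p = 0.00157). Oas1g rose 4.26-fold (2.09, SE 0.155, adjusted p = 0.000603), Oasl2 3.59-fold (1.84, SE 0.270, adjusted p = 0.00337), Oas1a 3.41-fold (1.77, SE 0.188, adjusted p = 0.00126) and Oas2 3.27-fold (1.71, SE 0.205, adjusted p = 0.00185). Oas3 was 3.19-fold higher (1.67, SE 0.351) without passing (adjusted p = 0.0118). Its adjusted p was 0.00523 without the filter on low counts and 6.44e-06 with DESeq2. Without LPS- tlr4f/f replicate 2, Oas1a, Oas1g and Oasl1 were called, which left 3 of 6 (and 1038 of 15322 genes tested). Without LPS- tlr4f/f replicate 3, 4 of 6 were called (and 1682 of 15186 genes tested). The log2 fold change of Oasl1 was then 4.96.

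LPS+ tlr4f/f-lysM-cre against LPS+ tlr4f/f is, as headed, the effect of genotype under LPS and, with the headings exchanged, the effect of LPS in tlr4f/f-lysM-cre BMDMs. All 6 members rose, against 10.8% of 14540 genes called higher and 10.9% called lower, and all 6 were called in each of 14 other settings. Oasl1 rose 18.7-fold (log2 fold change 4.22, SE 0.333, adjusted p = 0.000334), Oas1g 3.99-fold (2.00, SE 0.0780, adjusted p = 3.69e-10) and Oasl2 3.80-fold (1.93, SE 0.0841, adjusted p = 5.76e-09). Oas2 rose 3.26-fold (1.71, SE 0.0655, adjusted p = 3.20e-10), Oas1a 2.69-fold (1.43, SE 0.0572, adjusted p = 4.60e-10) and Oas3 2.50-fold (1.32, SE 0.0545, adjusted p = 6.04e-10). The median was 1.82, and -0.02 over all genes tested. The standard errors were smaller than in the comparison above, as the 3 libraries within each LPS+ group lay close together.

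LPS+ tlr4f/f-lysM-cre against LPS- tlr4f/f-lysM-cre asks, as headed, what LPS did in Cre macrophages and, if exchanged, what genotype did under LPS. Each of the 6 members was lower, and 5 of 6 were called lower, against 3.65% of 14234 genes called lower and 2.42% called higher. Oasl1 fell by 2.77 on the log2 scale (SE 0.197, adjusted p = 0.000999), which is 6.81-fold. Also lower were Oas1g (log2 fold change -1.43, SE 0.102, adjusted p = 0.000999), Oas3 (-1.33, SE 0.190, adjusted p = 0.00545), Oas1a (-1.31, SE 0.120, adjusted p = 0.00151) and Oas2 (-1.14, SE 0.102, adjusted p = 0.00140). Oasl2 differed by -1.03 (SE 0.187, adjusted p = 0.0110) and was not called. The median was -1.32, and 0.03 over all genes tested. None of the 6 members was called when LPS+ tlr4f/f-lysM-cre replicate 1, 2 or 3 was left out, though their log2 fold changes stayed between -2.91 and -0.86 in every omission of 1 library. With these 3 libraries left out in turn, only 4 of 14789, 7 of 14827 and 15 of 14808 genes tested were called.

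LPS+ tlr4f/f against LPS- tlr4f/f, the effect of LPS in control macrophages as headed and of genotype without LPS if exchanged, called 0 of 6 members. It called 0% of 14701 genes higher and 0% lower, while 3624 genes had an unadjusted p below 0.05. All 6 members were lower, each with an unadjusted p below 0.05. The log2 fold change was -0.95 for Oas1a (SE 0.134, adjusted p = 0.0474), -1.32 for Oas1g (SE 0.133, adjusted p = 0.0253), -1.12 for Oas2 (SE 0.181, adjusted p = 0.0506) and -1.09 for Oasl2 (SE 0.183, adjusted p = 0.0512). It was -0.96 for Oas3 (SE 0.280, adjusted p = 0.111) and -1.58 for Oasl1 (SE 0.557, adjusted p = 0.155). The median was -1.11, and -0.03 over all genes tested. DESeq2 called 3 members (Oas1g, Oas2 and Oasl2) and 467 genes. Without LPS- tlr4f/f replicate 3, edgeR called 4 members (Oas1a, Oas1g, Oas3 and Oasl2) as lower, and 184 of 15227 genes in either direction.

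LPS+ tlr4f/f-lysM-cre was also compared with LPS- tlr4f/f. Both groups keep their headings in both readings, so the comparison holds in both but joins genotype and LPS. Only Oasl1 was called (1 of 6), 6.10-fold higher (log2 fold change 2.61, SE 0.509, adjusted p = 0.00966), against 6.92% of 14584 genes called higher and 6.45% called lower. It kept its call without LPS- tlr4f/f replicate 3 (2.20, adjusted p = 0.000207) and lost it without each other library of the comparison (adjusted p between 0.0175 and 0.0381). The other 5 members were higher by 0.35 to 0.82 on the log2 scale. Oasl2 (0.82, SE 0.162, adjusted p = 0.00982) and Oas1g (0.66, SE 0.105, adjusted p = 0.00458) missed the fold of 2. Oas2 (0.56, SE 0.168, adjusted p = 0.0379), Oas1a (0.46, SE 0.125, adjusted p = 0.0281) and Oas3 (0.35, SE 0.274, adjusted p = 0.350) missed both criteria.

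The interaction of genotype and LPS, fitted over all 12 libraries, is the same contrast in both readings. It called 0 of 6 members (0 with an unadjusted p below 0.05, and 0 with DESeq2), against 0.659% of 15775 genes called higher and 0.38% called lower. For Oasl1 the estimate was -1.18 with a 95% confidence interval from -2.55 to 0.20 (adjusted p = 0.289). The intervals were -0.74 to 0.05 for Oas1a, -0.45 to 0.25 for Oas1g, -0.46 to 0.45 for Oas2, -1.15 to 0.43 for Oas3 and -0.55 to 0.70 for Oasl2. A 2-fold difference in response lay inside the intervals of Oas3 and Oasl1 only. The 6 comparisons share libraries and are not independent of each other.

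**Figure D2:**
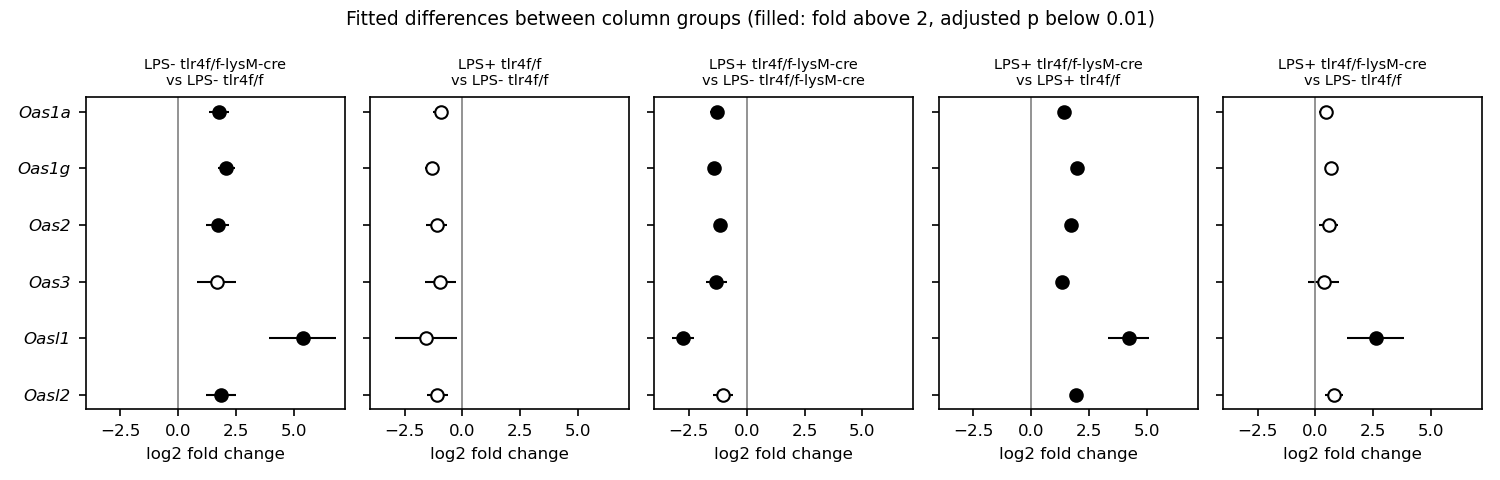
Log2 fold changes of the 6 OAS genes with 95% confidence intervals in the 5 pairs of column groups (3 libraries against 3), filled where the fold was above 2 and the adjusted p below 0.01. All 6 points are filled for LPS+ tlr4f/f-lysM-cre against LPS+ tlr4f/f and none for LPS+ tlr4f/f against LPS- tlr4f/f; Oasl1 lies farthest from 0 in every panel.

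To compare levels between genes, CPM was divided by the length of the transcript in kb. On this scale the 6 genes summed to 313 ± 73.0 (SD, n = 3) in LPS- tlr4f/f, 1622 ± 294 in LPS- tlr4f/f-lysM-cre, 149 ± 10.9 in LPS+ tlr4f/f and 531 ± 11.5 in LPS+ tlr4f/f-lysM-cre. Oasl1 made up 4.19% ± 1.97 of this sum in LPS- tlr4f/f and 3.01% ± 0.925 in LPS+ tlr4f/f, the smallest share of a member in both. It made up 35.7% ± 3.21 in LPS- tlr4f/f-lysM-cre, the largest share there, and 15.9% ± 1.96 in LPS+ tlr4f/f-lysM-cre. The share of Oasl1 did not overlap between the 2 tlr4f/f-lysM-cre groups, nor between either of them and either tlr4f/f group. Between the 2 genotype headings the difference was 31.5 percentage points under the LPS- headings, while under the LPS+ headings it was 12.9. Each had p = 0.1 in an exact two-sided permutation test, the smallest that 3 against 3 libraries allow. Oasl1 was chosen for this test after its values were seen.

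Of the 4 OAS1, OAS2 and OAS3 type synthetases, Oas1a and Oas3 held the larger shares in every group. Oas1a took 26.5% ± 2.55, 17.5% ± 1.72, 28.0% ± 0.339 and 21.2% ± 0.868 of the sum in the order of groups above. Oas3 took 25.4% ± 3.84, 16.1% ± 1.77, 27.8% ± 0.979 and 19.6% ± 0.677. Oas1g and Oas2 held less, each between 4.87% and 7.55% on average in every group. Oasl2 held 29.7% ± 1.51 in LPS- tlr4f/f, 20.5% ± 1.65 in LPS- tlr4f/f-lysM-cre, 28.6% ± 1.77 in LPS+ tlr4f/f and 30.7% ± 0.263 in LPS+ tlr4f/f-lysM-cre.

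**Figure D3:**
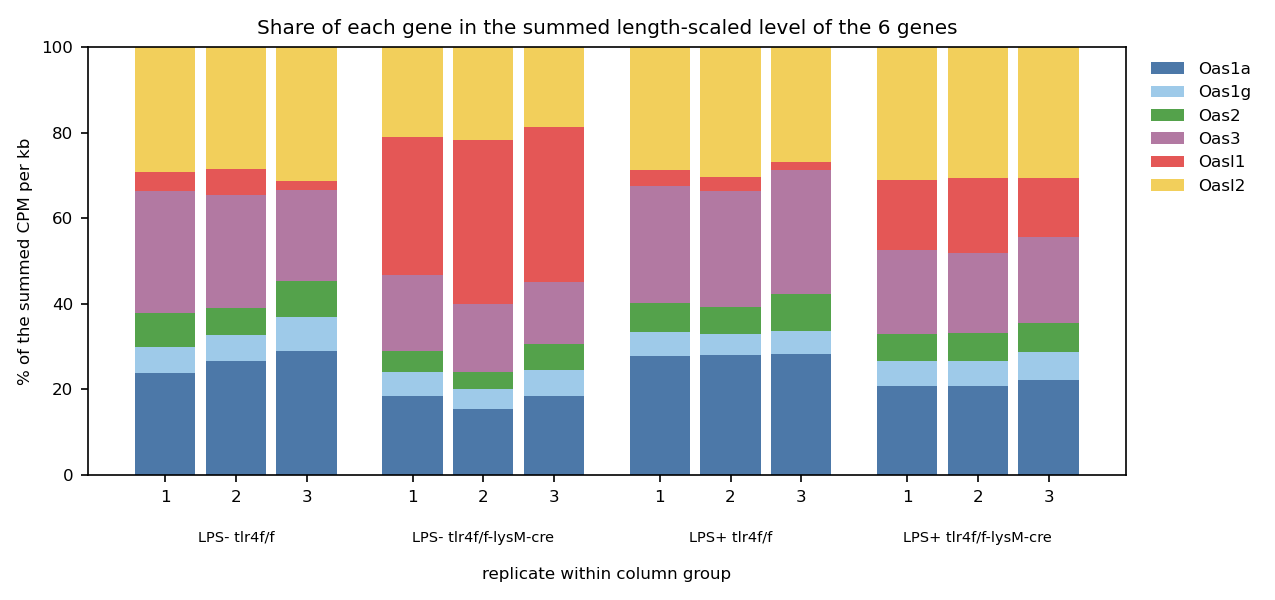
Share of each gene, in percent, of the CPM per kb summed over the 6 OAS genes, with 1 stacked bar per library. The share of Oasl1 is under 6% in all libraries headed tlr4f/f, between 13.7% and 17.6% in LPS+ tlr4f/f-lysM-cre and between 32.1% and 38.4% in LPS- tlr4f/f-lysM-cre.

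The other 6 OAS genes of chromosome 5 were at most at 64.3 CPM in a library, and 3 of them could be tested. Oas1b, annotated as a transcribed pseudogene, was at 12.9, 7.08 and 11.3 CPM in LPS- tlr4f/f, 64.3, 59.6 and 50.4 in LPS- tlr4f/f-lysM-cre, 4.04, 5.02 and 3.85 in LPS+ tlr4f/f, and 22.2, 23.2 and 26.6 in LPS+ tlr4f/f-lysM-cre. It had the order of groups of the members, with no overlap. Oas1b was called higher in LPS- tlr4f/f-lysM-cre than in LPS- tlr4f/f (log2 fold change 2.47, adjusted p = 0.00121) and in LPS+ tlr4f/f-lysM-cre than in LPS+ tlr4f/f (2.48, adjusted p = 2.26e-09). It was called lower in LPS+ tlr4f/f-lysM-cre than in LPS- tlr4f/f-lysM-cre (-1.27, adjusted p = 0.00223) and, like Oasl1 alone of the members, higher in LPS+ tlr4f/f-lysM-cre than in LPS- tlr4f/f (1.21, adjusted p = 0.00894). Oas1h, between 0.147 and 0.179 CPM in LPS+ tlr4f/f, was called higher in LPS+ tlr4f/f-lysM-cre (2.35, adjusted p = 0.000684). Oas1c, between 4.05 and 17.8 CPM over all libraries, was called in none. Oas1d had at most 12 counts in a library, and Oas1e and Oas1f at most 1, so they were not tested.

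**Figure D4:**
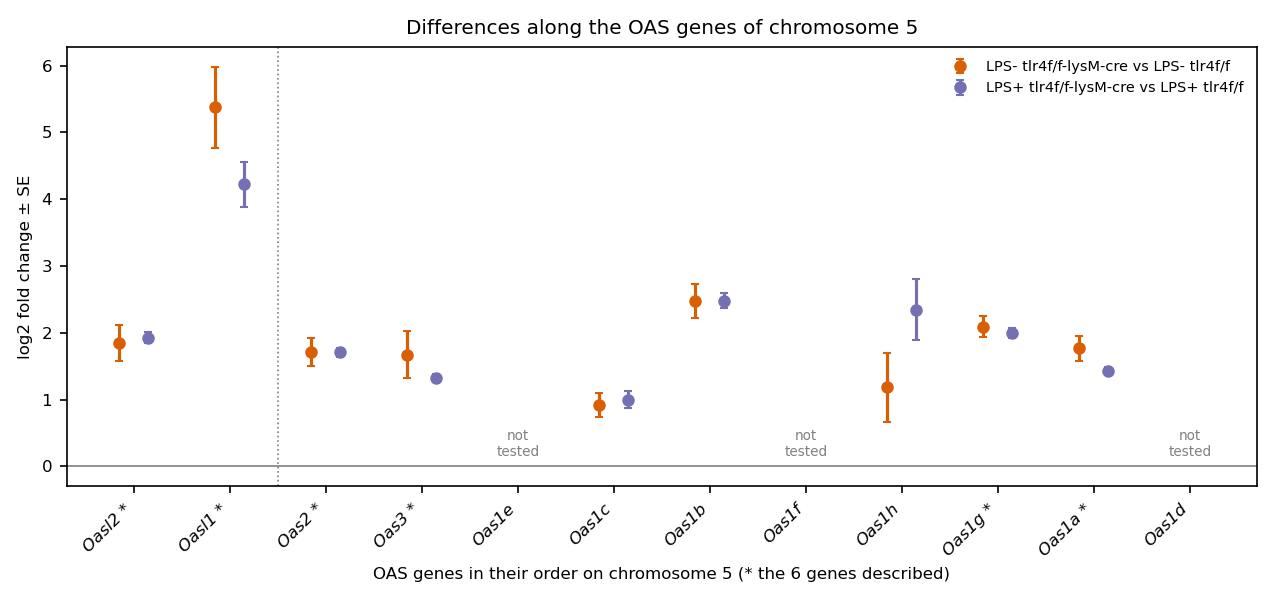
Log2 fold change with its standard error for the 12 OAS genes in their order along chromosome 5 (not to scale; a dotted line parts the Oasl genes from the second cluster), for 2 comparisons of tlr4f/f-lysM-cre with tlr4f/f headings. The 9 genes tested all lie above 0, from 0.92 for Oas1c to 5.38 for Oasl1; 3 were not tested.

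Akap7, a protein with a domain like that of 2-5A phosphodiesterases, was highest in LPS- tlr4f/f-lysM-cre, at 13.6 ± 5.08 CPM, and between 3.38 and 5.20 CPM in the 9 libraries of the other groups. It was called in the interaction (-2.06, adjusted p = 0.00823). Abce1, an ATP-binding protein of ribosome recycling, and Pde12, a 2-5A phosphodiesterase, were called in none of the comparisons.

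Of 9 genes of double-stranded RNA sensing, 8 were higher in LPS- tlr4f/f-lysM-cre than in LPS- tlr4f/f. Of these, 7 were called, against 9.25% of all genes tested called higher. Mavs, the adaptor of the RIG-I-like receptors, was called lower there (by 1.05 on the log2 scale, adjusted p = 0.00473, against 7.81% of all). In LPS+ tlr4f/f-lysM-cre against LPS+ tlr4f/f 8 of 9 were called higher (10.8% of all). Against LPS- tlr4f/f-lysM-cre, 8 of 9 were lower in LPS+ tlr4f/f-lysM-cre and 3 of 9 were called lower (3.65% of all). Compared with LPS- tlr4f/f, 8 of 9 were higher in LPS+ tlr4f/f-lysM-cre and 4 of 9 were called higher (6.92% of all). In LPS+ tlr4f/f against LPS- tlr4f/f, 9 of 9 were lower and 0 were called (0% of all). Ifih1, the cytosolic sensor MDA5, was at 85.6 ± 19.4, 1295 ± 418, 53.6 ± 5.55 and 533 ± 22.0 CPM (SD, n = 3) in the order of groups used above. It rose by 3.90 (adjusted p = 0.000679) between the LPS- groups and by 3.31 (adjusted p = 7.27e-12) between the LPS+ groups. Tlr3, the endosomal sensor, was at 16.3 ± 0.983, 238 ± 21.7, 11.6 ± 0.882 and 58.0 ± 4.57 CPM and was called in the interaction (-1.54, adjusted p = 0.00135), unlike any member. Zbp1, a Z-RNA sensor, and Dhx58, which encodes LGP2, rose by 3.30 (adjusted p = 0.00391) and 2.23 (adjusted p = 0.00348) between the LPS- groups.

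Of 11 genes of type I interferon and its signal, 10 were higher in LPS- tlr4f/f-lysM-cre than in LPS- tlr4f/f. Of these, 7 were called, against 9.25% of all genes tested called higher. In LPS+ tlr4f/f-lysM-cre against LPS+ tlr4f/f, 11 of 11 were higher and 7 were called higher (10.8% of all). Against LPS- tlr4f/f-lysM-cre, 10 of 11 were lower in LPS+ tlr4f/f-lysM-cre and 4 were called lower (3.65% of all). Against LPS- tlr4f/f, 9 of 11 were higher in LPS+ tlr4f/f-lysM-cre and 5 were called higher (6.92% of all). Of the 10 that could be tested in LPS+ tlr4f/f against LPS- tlr4f/f, 9 were lower and 0 were called (0% of all). Ifnb1, the interferon-β gene, had 2, 1 and 2 counts in LPS- tlr4f/f, 141, 96 and 150 in LPS- tlr4f/f-lysM-cre, 0, 0 and 0 in LPS+ tlr4f/f, and 13, 17 and 23 in LPS+ tlr4f/f-lysM-cre. Against a floor of 3 counts per library, Ifnb1 was at least 73.7-fold higher in LPS- tlr4f/f-lysM-cre than in LPS- tlr4f/f and at least 6.69-fold higher in LPS+ tlr4f/f-lysM-cre than in LPS+ tlr4f/f. Between the tlr4f/f-lysM-cre groups Ifnb1 fell by 3.15 from LPS- to LPS+ (adjusted p = 0.00261). Irf7, whose translation Oasl1 is known to inhibit, was at 477 ± 344, 1968 ± 178, 79.9 ± 23.1 and 434 ± 15.1 CPM in the order of groups above. It rose by 2.44 (adjusted p = 0.000667) in LPS+ tlr4f/f-lysM-cre against LPS+ tlr4f/f, and its difference between the LPS- groups was 2.03 (adjusted p = 0.0556). Usp18, a negative regulator of the interferon receptor, rose by 4.22 (adjusted p = 0.000466) between the groups headed LPS- and by 4.04 (adjusted p = 7.93e-13) between those headed LPS+. Ifnar2, a chain of that receptor, rose by 1.53 (adjusted p = 0.00128) between the LPS- groups.

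**Figure D5:**
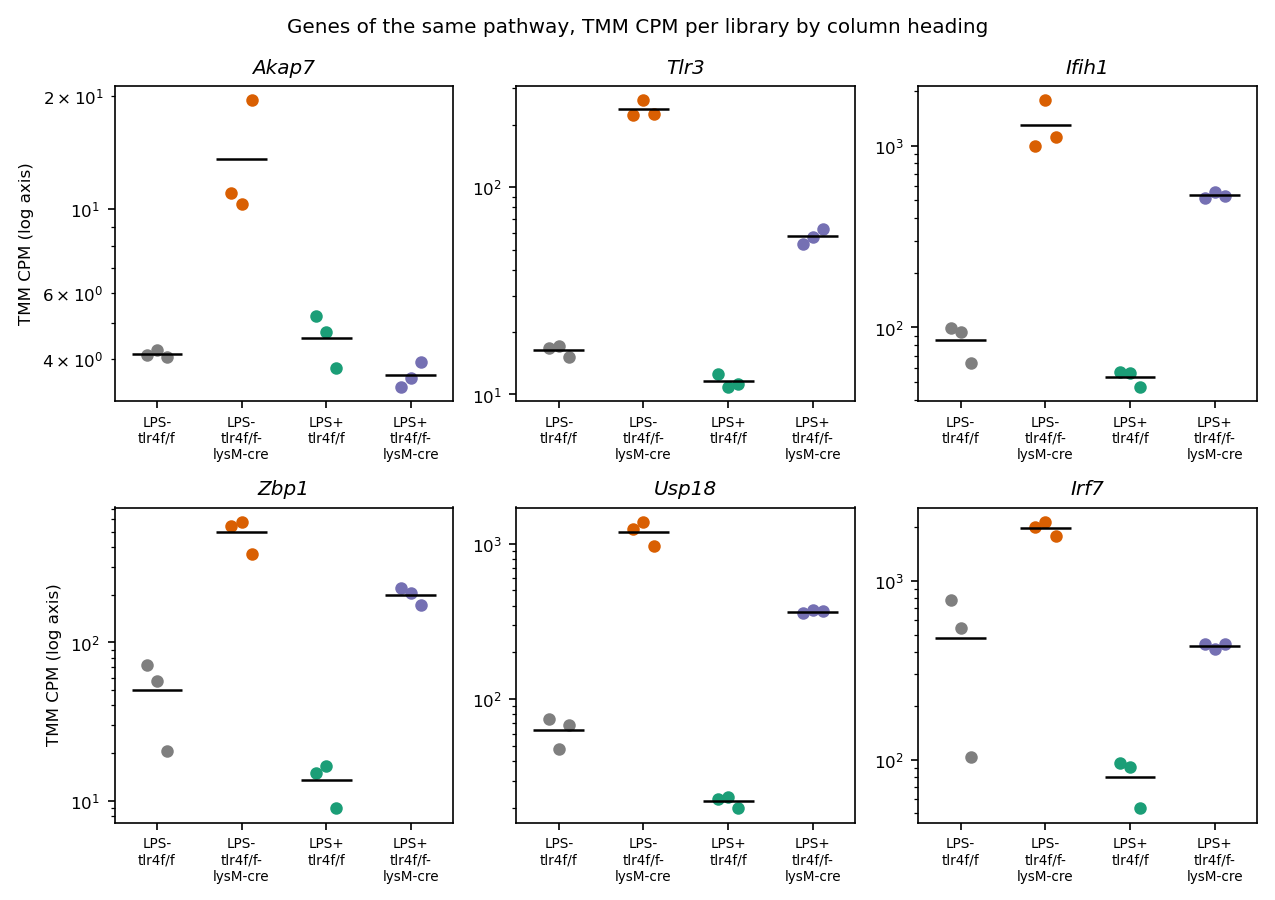
Levels of 6 genes of the pathway lists in TMM-scaled CPM (log axis) by column heading, with points for the 3 libraries of a group and lines for their means. Ifih1, Zbp1, Tlr3 and Usp18 are high under both tlr4f/f-lysM-cre headings; Akap7 is high in LPS- tlr4f/f-lysM-cre alone, and Irf7 in LPS+ tlr4f/f-lysM-cre lies within the range of LPS- tlr4f/f.

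Over the 12 libraries the log2 CPM of the members correlated with one another with Pearson's r between 0.954 (Oas2 and Oasl1) and 0.994 (Oas1a and Oas1g) over 15 pairs. The libraries fall into 4 groups and share their depth, so these are descriptions. Among 15769 other genes, the closest in pattern was Plcb3 to Oas1a (r = 0.995), H2-T24 to Oas1g (0.995), Ifit3b to Oas2 (0.995), Apol9a to Oas3 (0.991), Tap1 to Oasl1 (0.996) and Srgap2 to Oasl2 (0.995). Isg20, Pydc3, Ogfr, Tgm2 and Ifit3 were closest to the mean pattern of the 6 members, with r between 0.991 and 0.995. None of these 5 was among the 5 closest by Spearman's rho.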

How the data were processed

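RNA from 12 BMDM libraries was sequenced as paired 150-base reads. The authors trimmed reads with Trimmomatic 0.36, checked them with FastQC, used HISAT2 for alignment to mm10 and HTSeq for counting, whose strand and overlap settings are not given in the sources used here. The deposited values are raw read counts for 115140 transcripts. Reads carry no molecular identifiers, so floors cover counting error only.

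For each of 43131 genes the transcript with the highest total was used (33577087 to 56445268 counts per library, median 45330681). Of 7596 Ensembl gene IDs, 7551 were matched to a symbol. Counts were fitted with edgeR 4.0.16 in R 4.3.3 (filterByExpr, TMM, robust quasi-likelihood test, Benjamini-Hochberg over all genes tested), with the 6 libraries of each pair of groups, and all 12 for the interaction. The fold and adjusted p criteria are those of the study, which used DESeq. log2 CPM used a prior count of 2. The fit was tested on simulated counts. DESeq2 1.42.0, other filters, other scaling and left-out libraries were alternatives. Figures and tables were made with Python 3.11.15.

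Members, gene lists and marker lists were chosen with earlier results of these data known. Named genes are all members; from each list the genes called in a comparison, up to 4 by adjusted p in LPS+ tlr4f/f-lysM-cre against LPS- tlr4f/f-lysM-cre; Ifnb1 in any case; and Tlr4, Lyz2 and Il1b. Others (Oas1c, Abce1, Pde12, Mavs and the uncounted Oas1d, Oas1e and Oas1f) were added to account for a list. Of the list genes, 1 is left out of the report. Positions and promoters are from RefSeq (GRCm38.p6). Libraries of a group differed beyond sampling noise, much more so in the LPS- groups than in the LPS+ groups. Each library was counted as 1 sample.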

Additional observations from a re-analysis of the deposited data

Results flagged for a closer look

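Among the genes named, 2 that are no synthetases were called in the interaction of genotype and LPS over all 12 libraries (edgeR quasi-likelihood test). None of the 6 OAS genes was called, though the 95% confidence intervals of Oas3 and Oasl1 included a 2-fold difference in response. That of Oasl1 ran from -2.55 to 0.20 on the log2 scale. For Akap7 the interaction was -2.06 on the log2 scale (adjusted p = 0.00823), where LPS+ tlr4f/f-lysM-cre against LPS- tlr4f/f-lysM-cre gave -1.91 and LPS+ tlr4f/f against LPS- tlr4f/f gave 0.17. For Tlr3 it was -1.54 (adjusted p = 0.00135), with -2.03 and -0.47 in the same comparisons.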

How the results depend on the processing

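Of the members, the number called for LPS+ tlr4f/f-lysM-cre against LPS+ tlr4f/f was 6 and for the interaction 0 in every alternative run. For LPS- tlr4f/f-lysM-cre against LPS- tlr4f/f it was 5 or 6, and between 3 and 5 when 1 library was left out. For LPS+ tlr4f/f against LPS- tlr4f/f it was 0, but 3 with DESeq2, 1 without the filter on low counts, 2 with all 12 libraries in one fit, 1 at an adjusted p below 0.05, and between 0 and 4 when 1 library was left out. For LPS+ tlr4f/f-lysM-cre against LPS- tlr4f/f-lysM-cre it was 5 or 6, except 2 with the block described next, and between 0 and 6 when 1 library was left out. For LPS+ tlr4f/f-lysM-cre against LPS- tlr4f/f it was 1, but 0 without the filter, 0 with counts summed over transcripts, and between 0 and 1 when 1 library was left out. Where a library was left out, fewer libraries entered the fit; otherwise the cause was not tested. Every called difference kept its direction. In the interaction, which called no member, the estimate of Oasl2 (0.07) became -0.014 with DESeq2 and -0.015 with RLE factors and was between -0.12 and 0.24 with 1 library left out, and that of Oas2 (-0.01) became 0.010 without the filter and was between -0.21 and 0.10. RLE instead of TMM factors moved the median of all genes by less than 0.1 on the log2 scale. By Spearman's rho 0 of the 5 genes closest to the members were shared.

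Replicate numbers are shared between groups, but the meaning of a shared number is not stated. Deviations of same-numbered libraries correlated above 0.1 in 4 of 15 pairs (from -0.04 to 0.47). The highest, 0.47 and 0.34, were replicates 1 and 2 of LPS- tlr4f/f-lysM-cre against LPS- tlr4f/f. For replicate 3 of these groups the correlation was 0.01. The main fits used no block. With the replicate number as a block, 6 members were called for LPS- tlr4f/f-lysM-cre against LPS- tlr4f/f, 0 for LPS+ tlr4f/f against LPS- tlr4f/f, 2 (Oas1g and Oasl1) for LPS+ tlr4f/f-lysM-cre against LPS- tlr4f/f-lysM-cre, 6 for LPS+ tlr4f/f-lysM-cre against LPS+ tlr4f/f, 0 for LPS+ tlr4f/f-lysM-cre against LPS- tlr4f/f and 0 for the interaction.

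In the settings that kept all libraries, the numbers called over all genes tested moved by more than 1.5 times in these cases. For LPS- tlr4f/f-lysM-cre against LPS- tlr4f/f, 2497 genes became 3992 with DESeq2, 4251 with all 12 libraries and 4056 at an adjusted p below 0.05. For LPS+ tlr4f/f against LPS- tlr4f/f, 0 became 467, 74 and 92 in the same settings, and 34 without the filter. For LPS+ tlr4f/f-lysM-cre against LPS- tlr4f/f-lysM-cre, 865 became 2002 with DESeq2, 1983 at 0.05 and 212 with the replicate block. For LPS+ tlr4f/f-lysM-cre against LPS+ tlr4f/f, 3161 became 2045 with all 12 libraries. For LPS+ tlr4f/f-lysM-cre against LPS- tlr4f/f, 1950 became 2965 with DESeq2, 3045 at 0.05 and 922 with the block. For the interaction, 164 became 657 with DESeq2 and 629 at 0.05. With 1 library left out, the numbers were, in the same order, between 1038 and 1682, 0 and 184, and 4 and 1178. For the rest of the order they were between 3017 and 3152, 592 and 2291, and 10 and 306.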
